A study of Mus musculus with 6 samples.

Results

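The genes described here are 9 that macrophages use when they fuse and become osteoclasts, chosen by gene symbol among the 40213 symbols counted in each library: the fusion genes Dcstamp, Ocstamp and Atp6v0d2, the receptors Tnfrsf11a, Oscar and Itgb3, the transcription factor Nfatc1, and the resorption enzymes Acp5 and Ctsk. All 9 had rows, and 8 of them passed the expression filter and were tested. RNA was sequenced from macrophages grown from the bone marrow of C57BL/6 mice with macrophage colony-stimulating factor (M-CSF, 25 ng/ml) and 10% serum for 4 days. The MNP group (3 libraries) was then treated with polystyrene micro- and nanoplastics (MNP, 50 µg) for 24 h, and the control group (3 libraries) was kept without them for 24 h. No RANK ligand is named for either group, and the labels do not say whether the libraries of a group came from separate cultures or animals, so p-values measure only the spread between these libraries.

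Osteoclasts are the multinucleated cells that dissolve bone, and they arise from the same M-CSF-dependent precursors as macrophages. RANK ligand binds the receptor RANK, which works with receptors that signal through ITAM adaptors to switch on NFATc1, and NFATc1 then drives the genes for fusion and resorption. Macrophages can also fuse into foreign body giant cells around material that they cannot digest, and DC-STAMP is needed for both kinds of fusion in mice.

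After MNP treatment, 2 of the 8 tested genes rose. Itgb3, the integrin beta 3 chain, rose 1.89-fold and Ctsk, the collagen-degrading protease cathepsin K, rose 1.72-fold. The fusion genes, RANK and NFATc1 did not pass the test in either direction. Over all 12893 genes tested, 9.11% were called higher and 8.35% lower at an adjusted p under 0.05, or 17.5% in either direction, against 25% of these 8, a share that rests on 2 genes. The median log2 fold change was 0.09 over the 8 tested genes and -0.01 over all tested genes. The groups did not overlap for 3 of the 8 (37.5%), against 34.6% of all tested genes. The 9 genes were chosen with earlier results of these data known, so these shares are not a test of the set. No gene of the set was called lower with edgeR, DESeq2 or limma-voom (0 in each), and 1, Atp6v0d2, was lower at an unadjusted edgeR p under 0.05.

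The library totals ran from 20262859 to 23042146 counts, and 3 counts corresponded to 0.127 to 0.145 scaled CPM (counts relative to the library total times its TMM factor). A count was found for 18240 to 18672 genes in the MNP libraries and 20222 to 24062 in the controls. Control 1 had the most, and it was the highest control for 7 of the 9 genes. Among the macrophage markers, 6 of the 10 tested were called lower (60%, against 8.35% of all tested genes), and 0 were called higher. The summed level of all 10 was 17145 to 18199 CPM in the MNP libraries and 19494 to 20260 CPM in the controls. Most of that sum was the lysozyme gene Lyz2, at 12697 to 13589 CPM with MNP and 14477 to 15146 CPM in controls, whose own call was marginal (edgeR adjusted p = 0.0491). Mrc1, C1qa, Fcgr1, Mertk and Adgre1 also fell (log2 fold change -0.93, -0.60, -0.51, -0.48 and -0.33, edgeR adjusted p at most 0.00318). The other 4 markers were not called. Cd68, Cd14 and Itgam had log2 fold changes of 0.25, 0.10 and 0.03 (edgeR adjusted p = 0.0507, 0.278 and 0.762). Csf1r had -0.07 (edgeR adjusted p = 0.485). These are bulk libraries, in which fewer cells of a kind and less RNA per cell cannot be told apart.

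**Figure D1:**
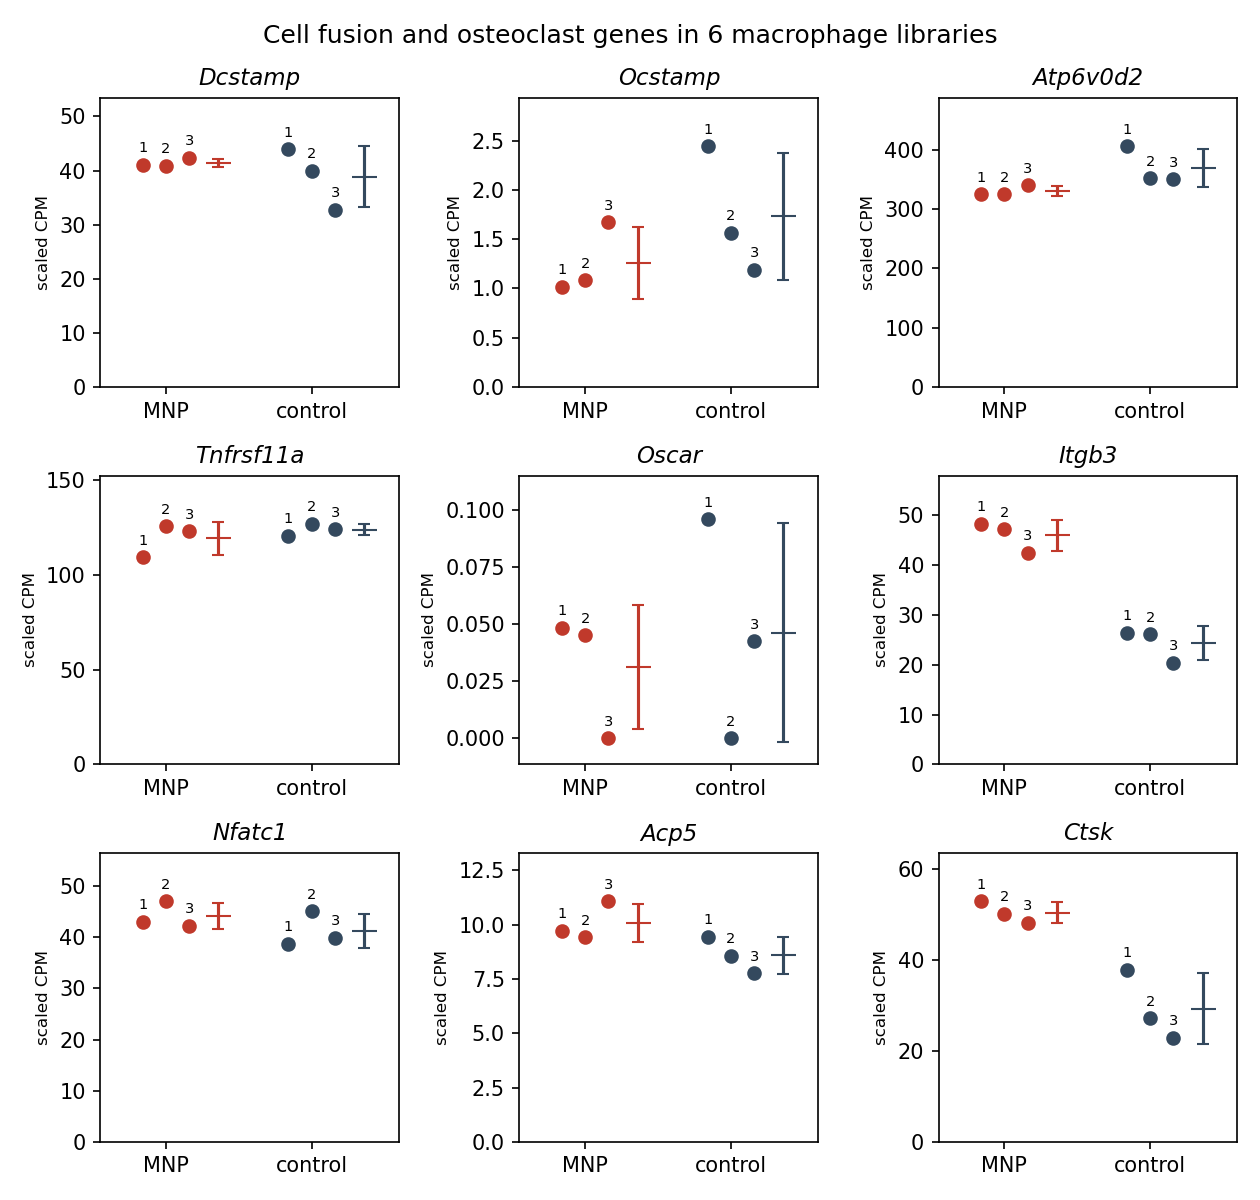
Scaled CPM (y axis, which includes 0) of the 9 genes in each of the 3 MNP and 3 control libraries, with library numbers beside the points and bars giving the mean ± SD. Itgb3 and Ctsk were above every control in all 3 MNP libraries, and the Oscar panel spans only 0 to 2 counts per library.

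Dcstamp encodes the membrane protein DC-STAMP, which precursor cells need to fuse. Its level was 41.0, 40.9 and 42.3 CPM in the MNP libraries and 43.9, 40.0 and 32.8 CPM in the controls. The MNP values lay close together and inside the wider range of the controls. The log2 fold change was 0.09 with a 95% interval of -0.12 to 0.30 (edgeR adjusted p = 0.575), and it was -0.011 without control 3.

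Ocstamp encodes OC-STAMP, a related membrane protein that acts with DC-STAMP in fusion. Its counts were low and varied within each group, with 21, 24 and 35 counts in the MNP libraries and 51, 36 and 28 in the controls. In scaled terms this was 1.26 ± 0.362 CPM with MNP and 1.73 ± 0.645 CPM in controls (SD, n = 3 each), and the groups overlapped. The interval of the log2 fold change, -1.31 to 0.39, was the widest of the 8, and no change was detected (-0.46, edgeR adjusted p = 0.477). Ocstamp counts were 2.47% to 3.95% of Dcstamp counts in MNP libraries and 3.62% to 5.57% in controls.

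Atp6v0d2 encodes the d2 subunit of the V-ATPase proton pump, which is needed for osteoclast fusion in mice and is enriched in osteoclasts. It was the most abundant of the 9 genes, at 325, 325 and 340 CPM in MNP libraries and 406, 352 and 351 CPM in controls. All 3 MNP values were below all 3 controls, but the difference did not pass over all genes (log2 fold change -0.16 ± 0.06 SE, interval -0.30 to -0.022, edgeR adjusted p = 0.108). Control 1 was the highest library, and without it the log2 fold change was -0.083 (edgeR adjusted p = 0.339). With library totals in place of TMM factors the gene was called lower (-0.25, edgeR adjusted p = 0.0135), on a scale where the calls over all genes were 28.1% higher, against 52.2% with TMM. The other d subunit, Atp6v0d1, which all cells use, was at 176 ± 5.31 CPM with MNP and 169 ± 5.87 CPM in controls and did not pass (log2 fold change 0.06, or -0.03 with library totals). The ratio of d2 to d1 was 1.79, 1.87 and 1.98 in MNP libraries and 2.49, 2.07 and 2.01 in controls, without overlap, but an exact permutation test of 3 against 3 libraries cannot go below the p = 0.1 that it gave.

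Tnfrsf11a encodes RANK, the receptor for RANK ligand, and its level was 109, 126 and 123 CPM in MNP libraries and 121, 127 and 124 CPM in controls. The groups overlapped, and the interval of the log2 fold change was -0.19 to 0.080 (-0.05, edgeR adjusted p = 0.604, and 0.0095 without MNP 1). The gene for its ligand, Tnfsf11, had a count of 0 in every library, which allows up to 3 counts, or 0.127 to 0.145 CPM. Tnfrsf11b, which encodes the decoy receptor osteoprotegerin, had 1 count in all, in control 2. The receptor was thus counted in every library, and the ligand was not detected in any of the 6.

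Oscar encodes a collagen receptor that pairs with the adaptor FcR gamma and costimulates osteoclast formation. It had 1, 1 and 0 counts in the MNP libraries and 2, 0 and 1 counts in the controls, all under 3 counts, so it did not pass the filter and no fold change is given. Its partner Fcer1g, the FcR gamma chain, was at 246 ± 20.1 CPM with MNP and 223 ± 23.9 CPM in controls, (SD, n = 3 each). Tyrobp, the adaptor DAP12, was at 468 to 504 CPM with MNP and 457 to 512 CPM in controls. Neither adaptor passed (edgeR adjusted p = 0.260 and 0.764), and the log2 fold change of Tyrobp, 0.03, was -0.06 with library totals.

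Itgb3 encodes the beta 3 chain, which joins the alpha v chain to form the vitronectin receptor that holds osteoclasts to bone. It was at 48.3, 47.2 and 42.4 CPM in MNP libraries and 26.4, 26.1 and 20.4 CPM in controls. Every MNP library was above every control, with means of 46.0 ± 3.10 and 24.3 ± 3.38 CPM (SD, n = 3 each). The log2 fold change was 0.92 ± 0.10 SE, with an interval of 0.70 to 1.14 (edgeR adjusted p = 2.92e-05), and it ran from 0.82 to 0.99 with each library left out in turn.

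Related integrin chains differed from Itgb3 in their values. Itgav, its alpha v partner, was at 266, 296 and 296 CPM in MNP libraries and 198, 278 and 260 CPM in controls, and did not pass (log2 fold change 0.22, interval 0.0061 to 0.44, edgeR adjusted p = 0.155), although it passed with no filter or with the replicate number as a block (adjusted p = 0.00250 and 0.0157). Itgb5, another beta chain that pairs with alpha v, fell to 130, 119 and 140 CPM in MNP libraries, against 229, 210 and 228 CPM in controls (log2 fold change -0.78 ± 0.07, edgeR adjusted p = 2.51e-06). The ratio of Itgb3 to Itgb5 was 0.358 ± 0.0484 with MNP and 0.110 ± 0.0181 in controls (SD, n = 3 each). The groups did not overlap, and the exact permutation test gave its smallest possible two-sided p = 0.1. All 3 such ratios (this one, d2 to d1, and Ctsk to Ctsl) were picked with the values in view, and the p adjusted over the 3 was 0.1 for each.

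Itgb3 is also the beta chain of the platelet fibrinogen receptor, whose alpha chain is Itga2b. Itga2b fell to 0.870, 0.406 and 1.43 CPM in MNP libraries, against 5.56, 4.30 and 3.27 CPM in controls (log2 fold change -2.27, edgeR adjusted p = 0.000903). The 10 platelet and megakaryocyte markers summed to 13.3 to 16.3 CPM with MNP and 23.9 to 29.3 CPM in controls. Of the 7 tested, 1, Itga2b, fell (14.3%, against 8.35% of all tested genes called lower). Most of the sum was Pf4, the platelet factor 4 gene, which was not called, at 10.83, 11.05 and 11.66 CPM in MNP libraries and 10.54, 17.39 and 20.02 CPM in controls (edgeR adjusted p = 0.0692). The 8 mast cell and basophil markers summed to 18.2 to 21.2 CPM with MNP and 12.2 to 15.9 CPM in controls. Nearly all of the MNP sum was the stem cell factor receptor Kit, at 15.7 to 18.9 CPM with MNP and 8.24 to 11.1 CPM in controls. Kit was the 1 called gene of the 3 tested (33.3%, against 17.5% of all tested genes). The other tested genes, Gata2 and Hdc, had log2 fold changes of -1.003 and -1.170 and were not called (edgeR adjusted p = 0.182 and 0.0854). The granule protease genes Cpa3 and Mcpt8 were at or below 0.826 CPM in every library. Their part in the Itgb3 result was not tested.

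**Figure D2:**
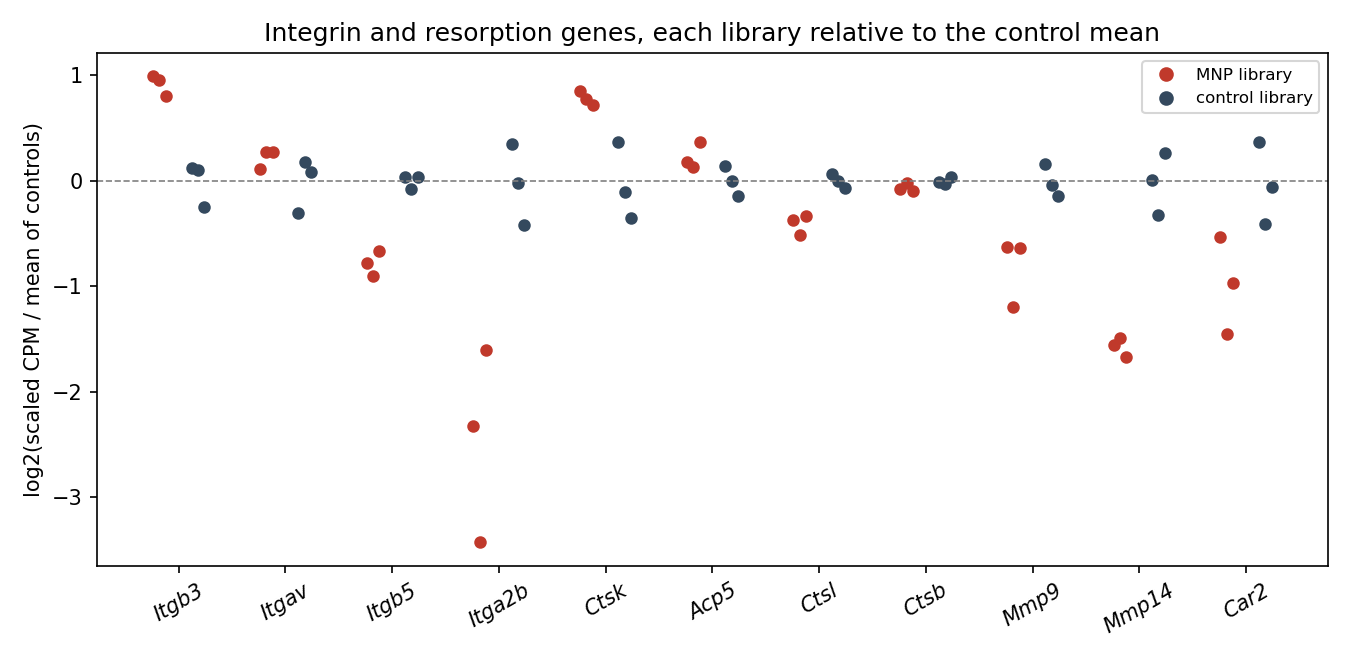
Log2 of scaled CPM over the mean of the 3 controls (y axis) for 4 integrin chains and 7 resorption genes, with 1 point for each MNP or control library. Itgb3 and Ctsk lie above the controls, while Itgb5, Itga2b, Ctsl, Mmp9, Mmp14 and Car2 lie below them.

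Nfatc1 encodes the transcription factor that RANK signalling switches on and that then raises its own expression. It was at 43.1, 47.1 and 42.2 CPM in MNP libraries and 38.8, 45.1 and 39.9 CPM in controls. The groups overlapped and the interval of the log2 fold change was -0.081 to 0.28 (0.10, edgeR adjusted p = 0.471). Its relative Nfatc2 fell to 13.2, 14.0 and 11.9 CPM in MNP libraries, against 20.4, 20.6 and 25.5 CPM in controls (log2 fold change -0.77 ± 0.12, edgeR adjusted p = 0.000419). In GENCODE M21, Nfatc1 and Acp5 each overlap a gene on the opposite strand, and neither of those genes is among the counted symbols. No strand setting is given for the counting, so whether their reads were kept apart is not known.

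Acp5 encodes tartrate-resistant acid phosphatase, the classic stain for osteoclasts. It was at 9.71, 9.42 and 11.1 CPM in MNP libraries and 9.44, 8.56 and 7.76 CPM in controls, and the groups overlapped narrowly. The difference did not pass (log2 fold change 0.23 ± 0.13, interval -0.056 to 0.52, edgeR adjusted p = 0.269).

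Ctsk encodes cathepsin K, the main collagen-degrading protease of osteoclasts. It was at 52.9, 50.1 and 48.1 CPM in MNP libraries and 37.9, 27.1 and 22.9 CPM in controls. All MNP libraries were above all controls, and the controls were spread more widely than the MNP libraries. The means were 50.4 ± 2.39 CPM with MNP and 29.3 ± 7.71 CPM in controls (SD, n = 3 each), with a log2 fold change of 0.78 ± 0.14 SE and an interval of 0.48 to 1.08 (edgeR adjusted p = 0.00146). It ran from 0.64 without control 3 to 1.02 without control 1, and stayed called in both.

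The promoters of these resorption enzymes are shown because Ctsk rose and Acp5 did not pass, while PU.1 and NFATc1 are known to act on both genes in osteoclasts. RefSeq promoters of build GRCm38.p6 were matched for 4 of the 9 genes (Ctsk, Acp5, Tnfrsf11a and Oscar), and each runs from 250 bases before to 50 bases after a gene start. The Ctsk window is chr3:95498960-95499259 on the plus strand, and the Acp5 window, that of the start furthest downstream of 3, is chr9:22130549-22130848 on the minus strand. Capitals mark matches on either strand to the letters GGAAA (the NFAT core), TGANTCA (AP-1), CATGTG (the M-box core bound by MITF), CACGTG (an E-box), GAGGAA (a PU.1 core) and TGACNNNGC (the antioxidant response element).
Ctsk promoter: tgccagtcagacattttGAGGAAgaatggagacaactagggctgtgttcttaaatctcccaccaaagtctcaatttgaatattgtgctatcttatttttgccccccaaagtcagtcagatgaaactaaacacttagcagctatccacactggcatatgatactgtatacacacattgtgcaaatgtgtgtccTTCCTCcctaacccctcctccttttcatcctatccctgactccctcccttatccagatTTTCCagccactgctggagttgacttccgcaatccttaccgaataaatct
Acp5 promoter: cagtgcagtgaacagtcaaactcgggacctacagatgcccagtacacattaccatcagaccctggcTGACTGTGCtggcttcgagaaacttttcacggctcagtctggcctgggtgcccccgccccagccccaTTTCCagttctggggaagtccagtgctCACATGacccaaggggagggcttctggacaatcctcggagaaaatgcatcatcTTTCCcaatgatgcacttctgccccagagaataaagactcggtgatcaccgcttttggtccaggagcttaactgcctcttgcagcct

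The Ctsk window held 2 matches to the PU.1 core, which begin 233 and 58 bases before the start, and 1 match to the NFAT core at the start itself. The Acp5 window held 2 matches to the NFAT core, 1 to the M-box core and 1 to the antioxidant response element. The windows of the other Acp5 starts held 1 match each to the NFAT core and 0 to the other letters searched, so the matches differ with the start that is used. The Oscar window, of a gene near 0 counts, held 4 matches to the NFAT core and 2 to the PU.1 core. It also held 1 to the M-box core and 1 to the antioxidant response element. The Tnfrsf11a window held 0 matches to any of the letters. Of 32851 promoters of the same length, 61.3% held the NFAT core, 28.3% the PU.1 core, 14.2% the M-box core, 12.4% the antioxidant response element, 7.81% the AP-1 letters and 7.15% the E-box. The NFAT and PU.1 letters can overlap where GAGGAAA occurs. A match describes letters and is not a binding site.

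**Figure D3:**
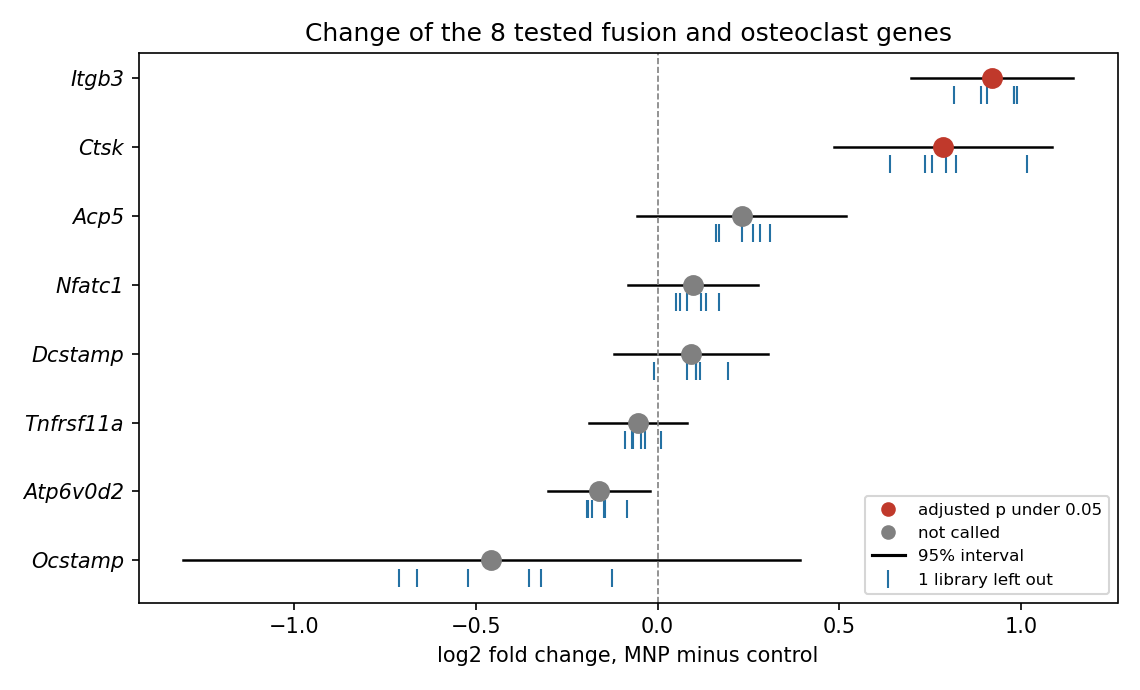
Log2 fold change, MNP minus control (x axis), of the 8 tested genes, with 95% intervals as lines and the values with 1 library left out as blue ticks. Itgb3 at 0.92 and Ctsk at 0.78 are the called genes, and the tick marks of Dcstamp and Tnfrsf11a lie on both sides of 0.

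Exon lengths from GENCODE M21 join the exons of all annotated transcripts of a gene, so an order between genes depends on them. Per kilobase of exon, the level of Atp6v0d2 was highest in both groups, at 122 ± 3.20 CPM per kb with MNP and 136 ± 11.6 in controls. Ctsk came next with MNP, at 31.8 to 35.0 CPM per kb, above Tnfrsf11a at 18.3 to 21.0. In controls these levels overlapped, with Ctsk at 15.1 to 25.0 and Tnfrsf11a at 20.2 to 21.2 CPM per kb. Dcstamp followed at 15.5 ± 0.305 with MNP and 14.6 ± 2.12 in controls, where its range of 12.3 to 16.5 overlapped that of Ctsk. Itgb3 stood above Nfatc1 with MNP, at 7.19 to 8.18 against 5.66 to 6.30 CPM per kb, and below it in controls, at 3.46 to 4.47 against 5.19 to 6.04. Acp5 was at 4.64 to 5.46 with MNP and 3.82 to 4.65 in controls, where it overlapped Itgb3. Ocstamp, at 0.344 ± 0.0990 with MNP and 0.474 ± 0.176 in controls, and Oscar, at most 0.0262 and 0.0519 CPM per kb, were lowest.

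The genes closest in pattern over the 6 libraries, by Pearson's r of log2 CPM, were Luc7l2, Recql4 and Ccdc141 for Dcstamp (r = 0.991, 0.989 and 0.987). For Ocstamp they were Dph3, Ccdc186 and Fahd2a (0.990, 0.987 and 0.987), and for Atp6v0d2 they were Cd2bp2, Trafd1 and Ptpa (0.995, 0.994 and 0.994). All 9 were uncalled, and with 6 libraries and 12893 candidates such values describe a likeness only.

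Around the 9 genes, 189 genes of osteoclast formation and function were listed in 9 groups, of which 179 were tested. With MNP, 38 of them rose and 26 fell, which is 35.8% of those tested, against 17.5% of all tested genes. The lists were chosen with earlier results of these data known, so this difference is not a test of the pathway. With library totals in place of TMM factors, 23 were called higher and 36 lower. Their median log2 fold change was 0.03, with TMM factors. In these totals each gene counts once, although Mmp9 and Snx10 are in both the fusion and the resorption lists. Tcirg1 is likewise in both the resorption and the V-ATPase lists.

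Among the 20 tested genes of RANK signalling, 3 rose and 2 fell (25%, against 17.5% of all tested genes, median 0.01). The adaptor Traf6, which RANK binds directly, was at 46.8 ± 0.592 CPM with MNP and 43.1 ± 4.55 CPM in controls and did not pass (edgeR adjusted p = 0.380). Sqstm1, the scaffold p62, rose 1.70-fold to 532, 506 and 566 CPM in MNP libraries, against 320, 299 and 324 CPM in controls. The adaptor Gab2 fell to 82.3, 79.0 and 84.2 CPM, against 106, 105 and 110 CPM in controls (log2 fold change -0.38 ± 0.06, edgeR adjusted p = 0.000379).

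Among 15 tested ITAM and costimulation genes, 5 rose and 3 fell (53.3%, against 17.5% of all tested genes, median 0.13). The inhibitory receptor Lilrb4a rose 1.59-fold and the calcium channel Itpr2 rose 1.49-fold, while the adaptor Lcp2 fell to 36.9 ± 3.37 CPM with MNP, against 48.7 ± 0.120 CPM in controls. The activating receptor Sirpb1b rose 1.79-fold. Counts of Lilrb4a and Sirpb1b are uncertain, since both have near-identical paralogs.

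Of 20 tested transcription factors that favour osteoclast formation, 2 rose and 3 fell (25%, against 17.5% of all tested genes, median -0.04), and Myc rose by 0.47 on the log2 scale. Relb, of the alternative NF-kappa B pathway, fell to 15.2 ± 1.90 CPM with MNP, against 23.2 ± 1.80 CPM in controls. Mitf, which acts on Ctsk and Acp5 in osteoclasts, was at 300 ± 17.2 CPM with MNP and 260 ± 12.1 CPM in controls (log2 fold change 0.21, edgeR adjusted p = 0.0324), and its call was lost without MNP 2, MNP 3, control 2 or control 3 (adjusted p = 0.0678, 0.132, 0.116 and 0.0777) and with library totals (0.175). Of 15 tested factors that hold osteoclast formation back, 2 rose and 1 fell (20%, median 0.06), and Rbpj, the Notch pathway factor, rose 1.45-fold. Irf8 was at 127 to 134 CPM with MNP and 137 to 143 CPM in controls. It did not pass (edgeR adjusted p = 0.273), and it was called lower with library totals (-0.18, adjusted p = 0.0270).

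Of 35 tested surface and cytoskeletal genes of macrophage fusion, 7 rose and 6 fell (37.1%, against 17.5% of all tested genes, median 0.04). The scavenger receptor Cd36, which takes part in fusion induced by interleukin 4, rose 2.02-fold to 3316, 3434 and 3772 CPM in MNP libraries, against 1851, 1716 and 1636 CPM in controls. The tetraspanins Cd81 and Cd9, which hold back macrophage fusion in mice, also rose (log2 fold change 1.02 and 0.58). The ATP receptor P2rx7 fell to 79.2 ± 2.84 CPM with MNP, against 115 ± 4.62 CPM in controls, and the chemokine Ccl2 fell to 67.4 ± 3.96 CPM, against 124 ± 28 CPM.

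Of 24 tested genes of acid and protease secretion, 7 rose and 6 fell (54.2%, against 17.5% of all tested genes, median -0.05). The elastase Mmp12 rose 2.24-fold to 4213, 4390 and 4473 CPM in MNP libraries, against 2062, 1777 and 1999 CPM in controls, and the creatine kinase Ckb rose 1.73-fold. The gelatinase Mmp9 fell to 11.8, 7.94 and 11.7 CPM, against 20.4, 17.7 and 16.5 CPM in controls (log2 fold change -0.80, edgeR adjusted p = 0.00203). The membrane-bound collagenase Mmp14 fell to 8.46, 8.84 and 7.79 CPM, against 25.0, 19.9 and 29.8 CPM in controls (-1.57, edgeR adjusted p = 4.10e-06). Among other lysosomal proteases, Ctsl fell to 981 ± 63.6 CPM with MNP, against 1300 ± 61.0 CPM in controls, and Ctsb was not called at 7205 ± 211 and 7530 ± 181 CPM. The ratio of Ctsk to Ctsl was 0.0515 ± 0.00429 with MNP and 0.0224 ± 0.00483 in controls, without overlap (exact permutation p = 0.1, the smallest possible, n = 3 each). Itgb3bp, which also fell, is a centromere protein named for its binding to integrin beta 3, and its call was lost with each library but control 1 left out (edgeR adjusted p = 0.0643 to 0.162).

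Acid secretion needs carbonic anhydrase II, the chloride exchanger ClC-7 and the pump subunit a3. Car2 was at 2.19 ± 0.684 CPM with MNP and 4.21 ± 1.13 CPM in controls, and Clcn7 was at 116 ± 7.12 and 96.5 ± 7.56 CPM. Both were called, Car2 lower and Clcn7 higher (edgeR adjusted p = 0.0391 and 0.0192). The Car2 call was lost without MNP 2, MNP 3, control 1 or control 3 (adjusted p = 0.154, 0.110, 0.138 and 0.0735) and with DESeq2 (0.0629), and the Clcn7 call without MNP 1, MNP 2, control 2 or control 3 (0.0733, 0.0672, 0.0715 and 0.0662) and with library totals (0.104). Tcirg1, the a3 subunit that works in the osteoclast pump, rose 1.41-fold to 378, 331 and 327 CPM in MNP libraries, against 285, 233 and 215 CPM in controls. Of 17 tested V-ATPase genes, 4 rose and 0 fell (23.5%, against 17.5% of all tested genes, median 0.12). Among those that rose were the ring subunits Atp6v0b and Atp6v0c (log2 fold change 0.35 and 0.26).

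Of 21 tested alpha v integrin partners, ligands and signalling genes, 5 rose and 3 fell (38.1%, against 17.5% of all tested genes, median 0.01). Spp1, which encodes the ligand osteopontin, was higher, at 6509 ± 291 CPM with MNP and 5038 ± 673 CPM in controls (log2 fold change 0.37, edgeR adjusted p = 0.00792). The ligand fibronectin, Fn1, fell to 22.7 ± 0.534 CPM with MNP, against 41.7 ± 7.22 CPM in controls. The kinase Ptk2b, which acts next to this integrin, rose 1.25-fold, and Itgb2, the beta chain of leukocyte integrins, rose 1.36-fold.

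Of 15 tested cytokine receptors and ligands of the lineage, 4 rose and 3 fell (46.7%, against 17.5% of all tested genes, median -0.08). Csf1r, the M-CSF receptor, was not called at 1337 ± 39.2 CPM with MNP and 1400 ± 74.2 CPM in controls. The tumour necrosis factor receptor Tnfrsf1b rose 1.33-fold, and the interleukin 6 receptor Il6ra fell to 31.7 ± 1.13 CPM, against 41.8 ± 3.33 CPM in controls.

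**Figure D4:**
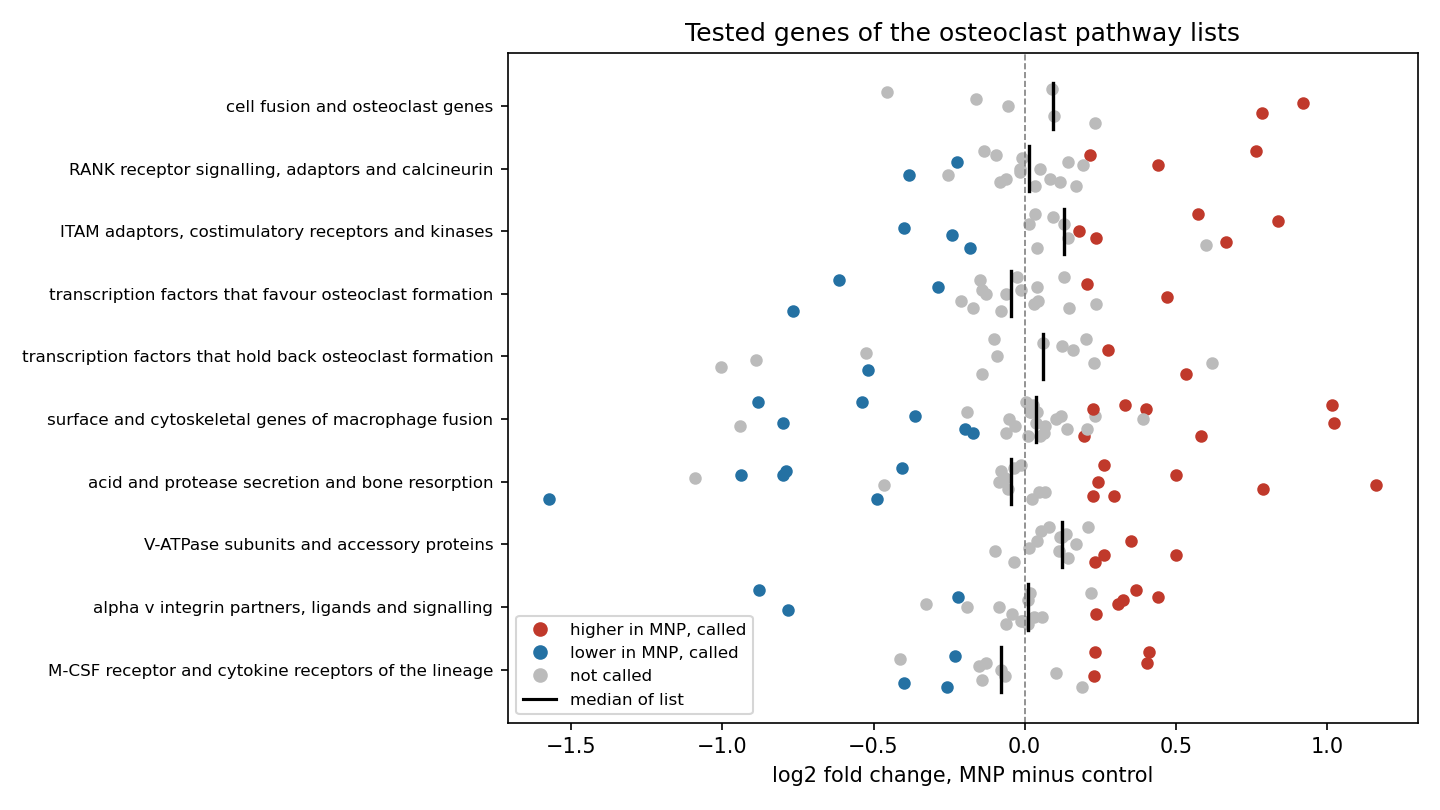
Log2 fold change, MNP minus control (x axis), of each tested gene in the set and in the 9 surrounding lists, with red for called higher, blue for called lower and grey for not called. The black bars are list medians, which lie between -0.08 and 0.13.

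Osteoblast and stromal cells, which make RANK ligand in bone marrow, were checked by their markers. The 11 osteoblast and stromal markers summed to 11.1 CPM or more with MNP and to 10.3 CPM or less in controls, most of it Runx2, which rose (log2 fold change 0.72). Bglap, the osteocalcin gene, was at 0 in every library, and Col1a1, Sp7 and Alpl were at or below 0.478 CPM. Markers of neutrophils summed to 135 to 154 CPM with MNP and 185 to 274 CPM in controls (5 of 9 tested fell, 55.6%). Those of dendritic cells summed to 4.21 to 6.38 CPM with MNP and 10.0 to 12.8 CPM in controls (3 of 7 tested fell, 42.9%). Over all tested genes, 8.35% were called lower. Erythroid markers stayed at or below 2.17 CPM in sum, and the lymphoid sum of 487 to 501 CPM with MNP and 395 to 415 CPM in controls was nearly all Il7r, with Cd3e and Ncr1 at 0. The part of these cells in the results was not tested.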

How the data were processed

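RNA was counted in 6 libraries. The authors deposited a separate table of raw counts by gene symbol for each library. The build GRCm39 and the tools STAR, Salmon, fastp and GATK are named, without roles or versions, per the submitters' processing notes. The sources used here give no annotation, strand setting or use of molecular identifiers. Per the labels' protocols, the kit was CORALL RNA-seq V2. Sample titles gave the groups and replicate numbers. Replicates differed by more than sampling noise (chi-square per degree of freedom 6.65 to 17.6 over genes with at least 10 counts).

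Genes passing edgeR's default filter entered 1 fit in edgeR 4.0.16 (R 4.3.3, TMM factors, quasi-likelihood F test, Benjamini-Hochberg adjustment over all tested genes, threshold 0.05). CPM values use the same factors. Standard errors were derived from the log2 fold change and its F value, and 95% intervals use the test's degrees of freedom. On simulated data, with changes placed only in well-counted genes, the steps recovered 81 of 100 1.5-fold and 98 of 100 2-fold changes. Of the 194 calls made there, 15 (7.73%) were false. Alternatives were other scalings, filters and thresholds, DESeq2 1.42.0, limma 3.58.1 (voom), a replicate block and omission of each library. The 9 genes and all lists were chosen with earlier results of these data known. Named beside the 9 genes are up to 4 called genes with the smallest p of each list and a fixed set of partner genes. Ctsl, Ctsb, Ccl2, Spp1, Itgb3bp, Runx2, Kit, Il7r, Pf4, Gata2, Hdc, Lyz2, Mrc1, C1qa, Fcgr1, Mertk, Adgre1 and the marker genes given at or near 0 were named after their values were seen. That rule also takes Nfkb1 and Acp2, and Map3k14, Bcl6, Klf2, Atp6ap1, Csf2ra and Tgfbr2, each of which lost its call in at least 1 alternative, and these are counted in their lists but not described. Some genes named by the rule are not reported here. Promoters and exon lengths come from the older build GRCm38, matched by symbol, and the files hold no coordinates.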

Additional observations from a re-analysis of the deposited data

How the results depend on the processing

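Itgb3 and Ctsk were called higher in all 15 alternatives, with log2 fold changes of 0.82 to 0.99 (adjusted p at most 0.000430) and 0.64 to 1.02 (adjusted p at most 0.0147). With library totals in place of TMM factors, 757 genes were called higher and 1941 lower, 1 of the 9 genes (Atp6v0d2) was called lower, 23 list genes were higher and 36 lower (38 and 26 with TMM factors), and the log2 fold changes of Atp6v0d1 and Tyrobp, neither called, were -0.033 and -0.056. At an adjusted p under 0.01, 685 genes were higher and 587 lower, with 24 list genes higher and 15 lower. With each library left out, 793 to 1241 genes were higher and 672 to 1004 lower, 26 to 42 list genes were higher and 16 to 24 lower, and 2 of the 9 genes were higher and 0 lower each time. The 672 came without MNP 2, and the 16 without MNP 2 or MNP 3. Uncalled directions turned for Dcstamp (-0.011 without control 3) and Tnfrsf11a (0.0095 without MNP 1), which ran from -0.011 to 0.19 and from -0.089 to 0.0095.

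Same-numbered libraries showed no clear shared deviation (correlations 0.087, 0.028 and -0.022, with 2 of 6 libraries closest to their own number). With 3 libraries in each group these values cannot exclude pairing, and the labels do not state any. With a replicate block, 1432 genes were called higher and 1254 lower, and 2 of the 9 genes were higher and 0 lower. The cause of these shifts was not tested. Oscar had too few counts to test. Ocstamp had low counts that varied between libraries of a group, and no change was detected.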
